A study of Mus musculus with 10 samples.

Results

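The enzymes of the TCA cycle, the pyruvate dehydrogenase complex, and the anaplerotic enzymes were examined in granulocyte-monocyte progenitors (GMPs) that had recently lost *Mpc2*. The set held 29 of the 51717 genes to which reads were assigned. Its genes were taken by function and not by a rule on their measured values, though earlier results of these data were known. They were enzymes of the cycle, the subunits of pyruvate dehydrogenase, pyruvate carboxylase (*Pcx*), the malic enzymes, and the mitochondrial PEP carboxykinase *Pck2*. Differential expression between recent *Mpc2* KO and WT GMPs was then followed step by step through the cycle.

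The mitochondrial pyruvate carrier, of which MPC2 is a subunit, brings pyruvate into the mitochondrial matrix. There pyruvate dehydrogenase converts pyruvate to acetyl-CoA, and pyruvate carboxylase converts it to oxaloacetate. Citrate synthase joins both products, and the cycle then oxidizes citrate stepwise and passes electrons to the respiratory chain. Anaplerotic reactions refill the cycle when its intermediates are drawn off for biosynthesis. In dividing progenitors the cycle provides precursors for nucleotides, lipids, and amino acids as well as energy.

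Both groups were CD45.2+ GMPs sorted from the bone marrow of male mice of the strain labelled C57Bl6/N. The study's methods describe mixed chimeras, in which CD45.2 donor marrow and CD45.1 marrow were transplanted into irradiated CD45.1 hosts. The 5 WT samples carried *ROSA26 CreER*+/-, and the 5 recent KO samples carried *Mpc2* fl/fl and *ROSA26 CreER*+/-. Both groups received tamoxifen chow for 2 wk, ending when cells were taken, so CreER and tamoxifen were shared by the controls. *ROSA26* is active in most cell types, so that deletion was not restricted to GMPs or to the myeloid lineage. Cells of 2 mice were combined in each recent KO sample, and those of 1 mouse made up each WT sample. The ages of the mice are not given in the sources used here.

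Levels are given as CPM, the estimated reads of a gene scaled to the depth of its library with TMM normalization, and as TPM, which is also scaled to transcript length. Genes were compared with each other only in TPM. The comparison of recent KO with WT used the quasi-likelihood test of edgeR, and adjusted p values are Benjamini-Hochberg values over all 12381 genes tested, with a threshold of 0.05. Samples held 14033776 to 19745405 estimated reads. *Mpc2* itself was at 60.9 to 117 CPM in WT samples and 17.1 to 43.9 CPM in recent KO samples, without overlap (log2 fold change -1.46, SE 0.239, adjusted p = 0.0156). These are sums over the whole gene, and the deleted part was not measured on its own.

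The GMP label was compared with marker genes. These lists were chosen with earlier results of these data known, so their counts are descriptive. All 12 GMP markers were detected, and their summed level was 90260.4 to 127533 CPM in WT samples and 53791 to 92205 CPM in recent KO samples. None passed the threshold in edgeR, but 9 of 12 had an unadjusted p under 0.05, all with lower means in recent KO samples, against 10.2% of all genes (5.35% lower). Of the others, *Cebpa* was also lower, and *Cd34* and *Kit* were higher. Of 8 macrophage markers, *C1qa*, *C1qb*, and *C1qc* rose past the threshold, against 0.121% of all genes called higher. *Cd5l*, *Mrc1*, *Axl*, and *Vcam1* had higher means below the threshold (log2 fold changes 1.63, 1.23, 0.69, and 0.18), and *Adgre1* a lower one (-0.39). The list summed to 17.03 to 32.6 CPM in WT samples and 36.3 to 63.7 CPM in recent KO samples. The 8 erythroid markers summed to 9.105 to 42.3 CPM in WT samples and 24.4 to 208 CPM in recent KO samples. All 7 tested were higher, 5 of them with an unadjusted p under 0.05 in edgeR. The 8 late neutrophil markers summed to 204 to 546 CPM in WT samples and 208 to 920.1 CPM in recent KO samples. Of these, 6 were higher and 2 lower, and 4 had an unadjusted p under 0.05. For 5 megakaryocyte markers the sums were 8.705 to 17.1 CPM in WT samples and 21.4 to 29.7 CPM in recent KO samples. All 3 tested were higher with an unadjusted p under 0.05. For 6 stem cell markers the sums were 19.8 to 27.8 CPM in WT samples and 23.3 to 42.9 CPM in recent KO samples. All 5 tested were higher, 2 with an unadjusted p under 0.05, against 4.89% of all genes. No erythroid, late neutrophil, megakaryocyte, or stem cell marker passed the threshold. For 6 basophil, mast cell, and eosinophil markers the sums were 160.4 to 490.4 CPM in WT samples and 200.3 to 359.9 CPM in recent KO samples. Within this list 4 genes had an unadjusted p under 0.05 in edgeR, and none passed the threshold. Of these 4, *Prg2*, *Epx*, and *Prss34* were lower (log2 fold changes -1.54, -1.72, and -1.35) and *Mcpt8* was higher (0.53). *Cpa3* was also higher (0.31), and *Ms4a2* lower (-0.20). The 8 markers of dividing cells summed to 1677 to 1780.4 CPM in WT samples and 1727 to 1811 CPM in recent KO samples. T cell markers summed to 2.33 to 6.35 CPM in WT samples and 4.99 to 8.504 CPM in recent KO samples. The part of these marker levels in the results on the cycle was not tested. In bulk RNA, fewer cells of a type and less RNA per cell cannot be told apart.

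Most of the set was well expressed in WT GMPs. *Mdh1* was left out of the order of levels, since its transcripts here held few of its reads, as described with its values. Of the other 28 genes, 10 had a mean above 100 TPM, 14 lay between 10 and 100 TPM, and 4 lay under 10 TPM. The mitochondrial malate dehydrogenase *Mdh2* was the most abundant at 629 ± 26.6 TPM (SD, n = 5). It was followed by the succinate dehydrogenase subunit *Sdhd* at 444 ± 33.5 TPM and the NAD-dependent isocitrate dehydrogenase subunit *Idh3g* at 394 ± 39.6 TPM. The 4 genes under 10 TPM were the cytosolic aconitase *Aco1*, *Pcx*, and the malic enzymes *Me3* and *Me1*. *Aco1* was at 3.03 ± 0.364 TPM and *Pcx* at 0.547 ± 0.117 TPM, far under *Mdh2* and *Cs*. The order of the genes changed little between groups, with 20 of 28 holding the same rank in WT and recent KO means and none moving by more than 2 ranks. Neighbors in this order were often not separable, since the WT samples of 16 of 27 neighboring pairs overlapped. *Sdhd*, *Idh3g*, *Sdhb*, and *Idh2* overlapped each with the next, and so did *Sdhc*, *Sdha*, and *Idh3a*.

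**Figure D1:**
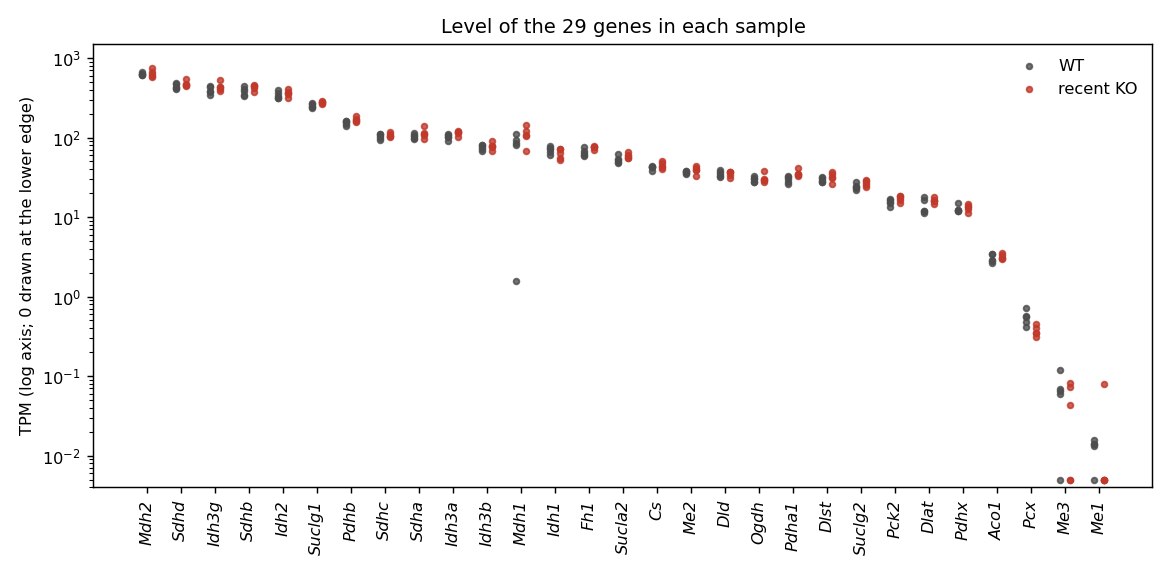
TPM of the 29 genes in each WT (gray) and recent KO (red) sample on a log axis, ordered by the WT mean, with values of 0 drawn at the lower edge. *Mdh2* leads at 629 TPM, and *Me3* and *Me1* lie under 1 TPM in all samples; *Mdh1* is drawn from the few of its reads that could be assigned, and its low point is WT replicate 1.

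None of the 27 genes that could be tested passed the threshold in edgeR, against 0.331% of all genes tested (0.121% called higher and 0.210% lower), and none passed in DESeq2. An unadjusted p under 0.05 was reached by 4 of 27 (14.8%), against 10.2% of all genes. They were *Pcx* and the cytosolic isocitrate dehydrogenase *Idh1*, both lower in recent KO (5.35% of all genes), and the pyruvate dehydrogenase subunit *Pdha1* and the succinyl-CoA ligase subunit *Sucla2*, both higher (4.89% of all genes). The WT and recent KO samples did not overlap for 2 of 27 genes, *Pcx* and *Pdha1*, against 2.43% of all genes. *Pcx* was the lower one, as were 1.32% of all genes, and *Pdha1* the higher one, as were 1.11%. The median log2 fold change was 0.029 over the 27 genes and -0.00181 over all genes, and 18 of 27 were higher in recent KO samples, against 49.6% of all genes. That split depended on scaling. It was 24 of 27 with library sizes alone and 24 of 26 on the TPM scale, where 67.01% and 63.5% of all genes were higher. The median absolute log2 fold change was 0.05599 for the 27 genes and 0.105 for all genes.

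**Figure D2:**
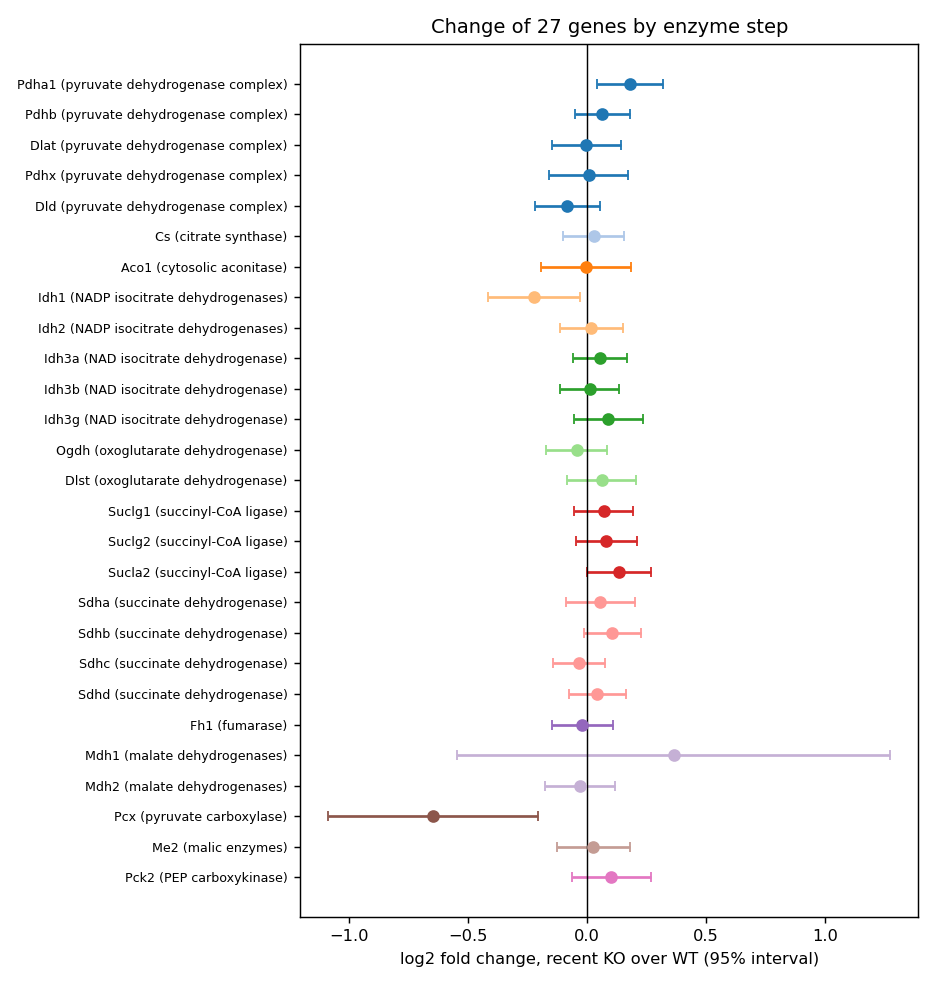
Log2 fold changes (recent KO over WT) and their 95% intervals for the 27 tested genes, in the order of the enzyme steps and colored by step. The intervals of *Pdha1*, *Idh1*, *Sucla2*, and *Pcx* lie to one side of 0 before adjustment, and the wide interval belongs to *Mdh1*.

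*Pdha1* (ENSMUSG00000031299, chrX:160122209-160138413 of GRCm38) encodes the catalytic alpha subunit of the E1 component, which decarboxylates pyruvate and is the subunit switched off by phosphorylation. *Pdha1* was at 101, 101, 93.3, 99.2, and 101 CPM in WT replicates 1 to 5 and at 118, 127, 109, 106, and 103 CPM in recent KO replicates 1 to 5. Every recent KO sample was above every WT sample. The difference was 1.13-fold (95% interval 1.03 to 1.25; adjusted p = 0.3304), with an exact two-sided permutation p = 0.00794, the smallest that 5 against 5 samples can give and the value of any separate groups of this size. In TPM the groups did not overlap either, with 26.1 to 32.8 TPM in WT and 32.9 to 41.4 TPM in recent KO samples, and *Pdha1* was the sole gene of the set with separate groups on that scale, against 1.86% of all genes (1.31% in the same direction). *Pdha1* overlaps the protein-coding gene *Map3k15* on the opposite strand. The 8.18 to 24.4 reads of *Map3k15* per sample were few beside the 1276 to 2221 of *Pdha1*.

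The other subunits of the complex were closer to WT. *Pdhb* was at 239, 262, 234, 259, and 242 CPM in WT replicates 1 to 5 and at 262, 271, 246, 259, and 254 CPM in recent KO replicates 1 to 5. *Pdhb*, the beta subunit of E1, was the most abundant of the 5 subunits at 154 ± 10.3 TPM in WT, and its groups overlapped (1.05-fold (95% interval 0.965 to 1.13; adjusted p = 0.756)). *Pdhx* was at 38.1, 35.9, 33.8, 35.4, and 33.5 CPM in WT replicates 1 to 5 and at 37.9, 35.6, 30.3, 35.7, and 38.4 CPM in recent KO replicates 1 to 5. *Pdhx*, which anchors E3 to the core, was the least abundant at 12.6 ± 1.26 TPM (1.01-fold (95% interval 0.897 to 1.13; adjusted p = 0.984)). *Dlat*, the acetyltransferase core E2, differed 0.999-fold (95% interval 0.903 to 1.105; adjusted p = 0.996), and *Dld*, the E3 subunit shared with oxoglutarate dehydrogenase, 0.944-fold (95% interval 0.859 to 1.04; adjusted p = 0.733). The ratio of *Pdha1* to *Pdhb* TPM within a sample was 0.193 ± 0.00791 (range 0.186 to 0.203) in WT samples and 0.212 ± 0.0118 (range 0.197 to 0.224) in recent KO samples. These ranges overlapped. The ratio of *Pdhx* to *Dlat* was 0.937 ± 0.154 (range 0.681 to 1.05) in WT samples and 0.8198 ± 0.0881 (range 0.716 to 0.931) in recent KO samples, also with overlap.

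Citrate synthase (*Cs*) condenses acetyl-CoA with oxaloacetate at the entry of the cycle. *Cs* was at 144, 147, 141, 157, and 139 CPM in WT replicates 1 to 5 and at 145, 163, 156, 141, and 139 CPM in recent KO replicates 1 to 5. The groups overlapped (1.02-fold (95% interval 0.933 to 1.12; adjusted p = 0.916)). *Aco1* is the cytosolic aconitase, which doubles as an iron-responsive RNA-binding protein. *Aco1* was at 14.9, 13.6, 12.9, 13.99, and 15.2 CPM in WT replicates 1 to 5 and at 15.05, 15.1, 12.95, 12.8, and 14.6 CPM in recent KO replicates 1 to 5. The group means were nearly equal (0.997-fold (95% interval 0.874 to 1.14; adjusted p = 0.994)).

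Isocitrate is oxidized by 3 kinds of enzyme. IDH1 in the cytosol and IDH2 in the mitochondria use NADP and yield NADPH, and the IDH3 complex uses NAD and belongs to the cycle proper. *Idh1* (ENSMUSG00000025950, chr1:65158616-65186500) was the lower of the NADP enzymes. *Idh1* was at 190.5, 194, 168, 204, and 165 CPM in WT replicates 1 to 5 and at 142, 135, 157, 178, and 179 CPM in recent KO replicates 1 to 5. Recent KO replicates 1, 2, and 3 lay under all WT samples, and replicates 4 and 5 lay within the WT range. The difference was 0.858-fold (95% interval 0.751 to 0.9801; adjusted p = 0.416), with an exact permutation p = 0.0714. *Idh2* was at 691, 621, 620.2, 629.6, and 657 CPM in WT replicates 1 to 5 and at 616, 714, 647, 661, and 624 CPM in recent KO replicates 1 to 5. *Idh2* overlapped between groups (1.01-fold (95% interval 0.924 to 1.11; adjusted p = 0.951)). Within a sample, the ratio of *Idh1* to *Idh2* TPM was 0.205 ± 0.0217 (range 0.1801 to 0.232) in WT samples and 0.175 ± 0.02796 (range 0.134 to 0.206) in recent KO samples, and the ranges overlapped.

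The 3 subunits of NAD-dependent isocitrate dehydrogenase had unequal RNA levels. The regulatory subunit *Idh3g* was the most abundant and the regulatory subunit *Idh3b* the least, at 394 ± 39.6 and 75.2 ± 6.098 TPM in WT. The catalytic subunit *Idh3a* was at 102 ± 6.98 TPM. *Idh3g* was at 523, 507, 518, 476, and 537 CPM in WT replicates 1 to 5 and at 531, 631, 524, 529, and 513 CPM in recent KO replicates 1 to 5. Recent KO replicate 2 stood above the other samples, which overlapped between groups (1.07-fold (95% interval 0.963 to 1.18; adjusted p = 0.715)). *Idh3b* was at 124, 123, 116, 119, and 128 CPM in WT replicates 1 to 5 and at 121, 135, 115, 119.5, and 124 CPM in recent KO replicates 1 to 5. *Idh3b* differed 1.01-fold (95% interval 0.926 to 1.098; adjusted p = 0.966) and *Idh3a* 1.04-fold (95% interval 0.962 to 1.12; adjusted p = 0.797). *Idh3b* lies across *Nop56* on the opposite strand, and the reads assigned to *Idh3b* here came to 95.7% of those behind the authors' mean count. The ratio of *Idh3g* to *Idh3a* was 3.85 ± 0.307 (range 3.35 to 4.11) in WT samples and 3.82 ± 0.455 (range 3.53 to 4.62) in recent KO samples, and that of *Idh3b* to *Idh3a* was 0.735 ± 0.047003 (range 0.655 to 0.779) in WT samples and 0.685 ± 0.0578 (range 0.647 to 0.787) in recent KO samples.

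Oxoglutarate dehydrogenase is built like pyruvate dehydrogenase, from *Ogdh* (E1), *Dlst* (E2), and the shared *Dld*. *Ogdh* was at 88.6, 86.2, 97.7, 93.03, and 90.1 CPM in WT replicates 1 to 5 and at 90.1, 95.8, 88.995, 83.9, and 83.7 CPM in recent KO replicates 1 to 5. *Dlst* was at 83.1, 93.2, 90.01, 85.5, and 86.03 CPM in WT replicates 1 to 5 and at 80.2, 95.7, 102, 91.2, and 88.3 CPM in recent KO replicates 1 to 5. Both genes were near 30 TPM, at 29.8 ± 2.43 and 29.2 ± 1.87 TPM in WT. *Ogdh* differed 0.971-fold (95% interval 0.889 to 1.06; adjusted p = 0.8697) and *Dlst* 1.04-fold (95% interval 0.944 to 1.16; adjusted p = 0.831), and both pairs of groups overlapped.

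Succinyl-CoA ligase makes ATP or GTP at the substrate level, with *Suclg1* as the common alpha subunit, *Sucla2* as the ATP-forming beta subunit, and *Suclg2* as the GTP-forming one. All 3 had higher means in recent KO samples. *Sucla2* (ENSMUSG00000022110, chr14:73525319-73596142) had the smallest p of the 3. *Sucla2* was at 119, 105, 109, 104, and 106 CPM in WT replicates 1 to 5 and at 125, 129.6, 110.0, 119, and 114 CPM in recent KO replicates 1 to 5. The highest WT value, in replicate 1, lay within the recent KO range. The difference was 1.098-fold (95% interval 1.001 to 1.205; adjusted p = 0.481), with an exact permutation p = 0.0556. *Suclg1* was at 406, 389, 404, 426, and 406 CPM in WT replicates 1 to 5 and at 471, 426, 422, 412, and 401 CPM in recent KO replicates 1 to 5. *Suclg2* was at 79.7, 73.2, 75.3, 71.5, and 72.1 CPM in WT replicates 1 to 5 and at 77.3, 75.7, 83.9, 82.7, and 74.2 CPM in recent KO replicates 1 to 5. Both genes overlapped between groups, with 1.05-fold (95% interval 0.963 to 1.14; adjusted p = 0.753) for *Suclg1* and 1.06-fold (95% interval 0.9698 to 1.16; adjusted p = 0.696) for *Suclg2*. The ratio of the ATP-forming to the GTP-forming beta subunit in TPM was 2.197 ± 0.0388 (range 2.15 to 2.25) in WT samples and 2.21 ± 0.211 (range 1.901 to 2.45) in recent KO samples, so the groups had similar means and the recent KO samples spread more widely.

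Succinate dehydrogenase is both a cycle enzyme and complex II of the respiratory chain. Its flavoprotein subunit *Sdha* and its iron-sulfur subunit *Sdhb* are held in the membrane by *Sdhc* and *Sdhd*. *Sdhd* and *Sdhb* were at 444 ± 33.5 and 384 ± 44.2 TPM in WT, while *Sdhc* and *Sdha* were both near 104 TPM. *Sdhd* was at 546, 534, 534, 553, and 548 CPM in WT replicates 1 to 5 and at 573, 604, 536, 550.5, and 537 CPM in recent KO replicates 1 to 5. *Sdha* was at 347, 343, 341, 344, and 339 CPM in WT replicates 1 to 5 and at 334, 421, 349, 348, and 329.9 CPM in recent KO replicates 1 to 5. In both genes recent KO replicate 2 was highest, and for *Sdha* it stood clear of every other sample. *Sdhc* was at 142, 139, 149, 139, and 142 CPM in WT replicates 1 to 5 and at 143, 146, 132, 136, and 139 CPM in recent KO replicates 1 to 5. *Sdhb* was at 442, 426, 406, 400.0, and 437 CPM in WT replicates 1 to 5 and at 442, 444, 482, 468, and 437 CPM in recent KO replicates 1 to 5. *Sdhb* overlapped between groups and had an exact permutation p = 0.0238 (1.08-fold (95% interval 0.991 to 1.17; adjusted p = 0.541)). The differences were 1.04-fold (95% interval 0.9403 to 1.15; adjusted p = 0.847) for *Sdha*, 0.978-fold (95% interval 0.907 to 1.05; adjusted p = 0.884) for *Sdhc*, and 1.03-fold (95% interval 0.9504 to 1.12; adjusted p = 0.849) for *Sdhd*. The ratio of *Sdhb* to *Sdha* was 3.68 ± 0.1804 (range 3.45 to 3.86) in WT samples and 3.79 ± 0.346 (range 3.204 to 4.12) in recent KO samples.

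Fumarase (*Fh1*) hydrates fumarate to malate. *Fh1* was at 163, 142, 144, 136, and 146 CPM in WT replicates 1 to 5 and at 153, 147, 146, 137, and 139 CPM in recent KO replicates 1 to 5. The groups overlapped (0.987-fold (95% interval 0.904 to 1.08; adjusted p = 0.953)). Malate is oxidized to oxaloacetate by *Mdh2* in the mitochondria and by *Mdh1* in the cytosol, as part of the malate-aspartate shuttle. *Mdh2* was at 933, 956, 987, 977, and 913 CPM in WT replicates 1 to 5 and at 956, 1024, 961, 819, and 907 CPM in recent KO replicates 1 to 5. The group ranges overlapped (0.979-fold (95% interval 0.884 to 1.08; adjusted p = 0.924)).

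*Mdh1* could not be measured in full. The transcripts of *Mdh1* in the annotation used here held 4.895% of the reads behind the authors' mean count. *Mdh1* was at 3.13, 40.1, 38.2, 37.3, and 25.98 CPM in WT replicates 1 to 5 and at 25.6, 32.6, 48.1, 37.5, and 41.4 CPM in recent KO replicates 1 to 5. WT replicate 1 stood far under all other samples, and the difference had a wide interval (1.29-fold (95% interval 0.685 to 2.42; adjusted p = 0.843)). Of the 3628 transcripts without a match in that annotation, 1 had a mean of 10799.5 reads, within 2.00% of the missing 10838 reads. No file here pairs that transcript with a gene. With its reads added, as an alternative chosen after the data were seen, *Mdh1* was at 704, 654, 683, 734, and 645 CPM in WT replicates 1 to 5. The recent KO replicates 1 to 5 were then at 685, 699.9, 632, 665, and 622 CPM. The groups overlapped, and the log2 fold change was -0.050 (adjusted p = 0.850). The ratio of *Mdh1* to *Mdh2* TPM was 0.596 ± 0.05002 (range 0.517 to 0.6502) in WT samples and 0.637 ± 0.05199 (range 0.592 to 0.721) in recent KO samples with that transcript.

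The anaplerotic enzymes were unevenly expressed. Pyruvate carboxylase, encoded by *Pcx* (ENSMUSG00000024892, chr19:4510472-4621752), makes oxaloacetate from mitochondrial pyruvate. *Pcx* was at 2.69, 3.66, 2.55, 2.18, and 2.63 CPM in WT replicates 1 to 5 and at 1.62, 2.098, 1.61, 1.89, and 1.598 CPM in recent KO replicates 1 to 5. Every recent KO sample was under every WT sample in CPM. *Pcx* was 0.6396-fold (95% interval 0.471 to 0.868; adjusted p = 0.269), with an exact permutation p = 0.00794, again the value of any separate groups of this size. Among the tested genes of the set, *Mdh1* included, this was the fold change farthest from 1, at the lowest level, with 23 to 66 reads per sample. In TPM the groups overlapped, at 0.409 to 0.718 TPM in WT and 0.312 to 0.457 TPM in recent KO samples, so the separation held on 1 of the 2 scales. It was also lost in CPM scaled by library size alone. There recent KO replicate 2, with 30 reads, lay above WT replicate 4, with 28 reads in a larger library. *Lrfn4*, at 2.44 CPM in WT, overlaps the span of *Pcx* on the opposite strand.

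Salmon assigned all *Pcx* reads of a sample to 1 of 3 transcripts with the same coding exons beyond the first. *Pcx-201* and *Pcx-204*, which begin at the upstream start, took the reads in 2 and 4 samples, and *Pcx-202*, which begins downstream, took them in 4. WT replicate 5 and recent KO replicates 2, 3, and 5 were assigned to *Pcx-202*. At these read numbers the start in use was not resolved. The 250 bases before each start are shown with those of *Pdha1*, since these are the genes whose groups did not overlap. They are RefSeq sequences of GRCm38.p6, 5′ to 3′ on the strand of the gene, with CCAAT boxes (CCAAT) and GC boxes (GGGCGG) of either strand in capitals. The windows are chr19:4510222-4510471 and chr19:4594069-4594318 on the plus strand for *Pcx*, and chrX:160138431-160138680 on the minus strand for *Pdha1*.
Pcx upstream start: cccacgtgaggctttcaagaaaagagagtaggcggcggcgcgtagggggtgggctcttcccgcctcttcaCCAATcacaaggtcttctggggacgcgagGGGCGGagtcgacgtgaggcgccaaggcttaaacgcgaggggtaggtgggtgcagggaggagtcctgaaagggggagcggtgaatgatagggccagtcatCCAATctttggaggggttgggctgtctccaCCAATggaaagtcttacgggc
Pcx downstream start: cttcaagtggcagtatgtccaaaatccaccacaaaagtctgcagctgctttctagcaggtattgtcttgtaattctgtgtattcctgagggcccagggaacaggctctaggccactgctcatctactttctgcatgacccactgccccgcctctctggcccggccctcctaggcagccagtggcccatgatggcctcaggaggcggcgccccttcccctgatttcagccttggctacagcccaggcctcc
Pdha1: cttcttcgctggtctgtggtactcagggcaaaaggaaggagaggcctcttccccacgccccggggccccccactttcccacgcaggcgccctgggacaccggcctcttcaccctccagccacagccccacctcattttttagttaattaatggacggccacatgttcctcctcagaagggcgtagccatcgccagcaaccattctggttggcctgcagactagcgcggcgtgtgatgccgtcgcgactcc

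The upstream *Pcx* window held 3 CCAAT boxes and 1 GC box, and neither the downstream *Pcx* window nor that of *Pdha1* held one. RefSeq gave 34 promoter windows for 26 genes of the set, some of which overlap within a gene. Of these windows, 18 (52.9%) held a CCAAT box and 20 (58.8%) a GC box, against 33.9% and 32.7% of all 32851 promoter windows. A TATA box (TATAAA) was in none, against 12.4% of all windows. The ETS motif CCGGAAG was in the windows of *Idh3g* and *Sdhd*, against 6.91% of all. The ERR motif TCAAGGTCA and the palindromic NRF1 motif were in none, against 0.387% and 0.782%. Both strands were searched, motifs may overlap, and a match is a run of letters and not a bound site.

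Of the malic enzymes, which convert malate to pyruvate, the mitochondrial NAD-dependent *Me2* carried the expression. *Me2* was at 90.8, 82.7, 96.4, 103, and 87.9 CPM in WT replicates 1 to 5 and at 85.3, 103, 94.9, 94.5, and 91.6 CPM in recent KO replicates 1 to 5. The groups overlapped (1.02-fold (95% interval 0.917 to 1.13; adjusted p = 0.936)). *Me1*, the cytosolic NADP-dependent enzyme, was not above 1 read in any sample except recent KO replicate 3, with 6 reads. *Me3*, the mitochondrial NADP-dependent enzyme, had 6, 5, 0, 4, and 7 reads in WT replicates 1 to 5 and 0, 0, 3, 4, and 3 reads in recent KO replicates 1 to 5. Both genes were under the minimum count and were not tested. *Pck2* makes phosphoenolpyruvate from oxaloacetate within mitochondria. *Pck2* was at 46.9, 44.2, 46.6, 38.5, and 47.7 CPM in WT replicates 1 to 5 and at 48.9, 47.7, 50.2, 51.3, and 42.5 CPM in recent KO replicates 1 to 5. Its groups overlapped (1.07-fold (95% interval 0.957 to 1.204; adjusted p = 0.7203)).

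**Figure D3:**
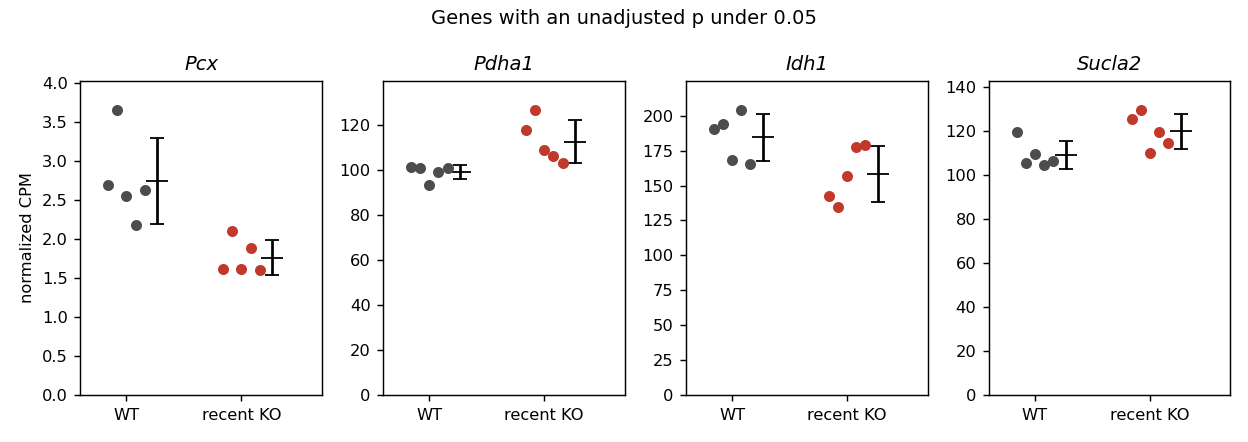
Normalized CPM of *Pcx*, *Pdha1*, *Idh1*, and *Sucla2* in each WT (gray) and recent KO (red) sample, with mean and SD beside the points. The groups are separate for *Pcx* and *Pdha1* and overlap for *Idh1* and *Sucla2*.

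Leaving aside *Mdh1* and the 4 genes with an unadjusted p under 0.05, the remaining 22 tested genes differed by 0.944- to 1.08-fold. Their 95% intervals all lay between 0.859- and 1.204-fold, and their adjusted p values between 0.541 and 0.996. Of these genes, 15 had a higher and 7 a lower mean in recent KO samples. A p above the threshold does not show that levels were equal, and these intervals give the sizes that the data leave possible. The reads of near-identical copies were few. *Pdhb* shares sequence with the pseudogene *Gm6123*, at no more than 4.63 reads, and the copies of *Suclg2*, *Me1*, and *Me3* held 0 reads.

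Recent KO replicate 2 was often the highest sample. It led the recent KO samples for 15 of 27 genes (55.6%), against 26.7% of all genes tested. Each other recent KO sample was highest for 2 to 4 genes of the set. The median log2 deviation from the WT mean, over the 26 tested genes without *Mdh1*, was 0.094 in this sample. It was 0.025, 0.010, 0.023, and -0.012 in recent KO replicates 1, 3, 4, and 5 and -0.025 to 0.019 in WT samples. Without recent KO replicate 2, 14 of the 27 had a higher mean in recent KO samples, with a median log2 fold change of 0.00655. Over all genes in that fit, 49.17% were higher and the median was -0.0036. *Sdha* then had a log2 fold change of -0.011 and *Idh3g* of 0.033, while *Pdha1* was at 0.14, *Sucla2* at 0.10, and *Pcx* at -0.71. None of the 27 genes passed the threshold without this sample, while 91 of all 12666 genes tested did, against 41 of 12381 with it. The same sample had the highest sum of macrophage and late neutrophil markers, at 63.7 and 920.1 CPM. Among recent KO samples it also had the highest sum of GMP markers, at 92205 CPM, and the lowest *Mpc2*, at 17.1 CPM. In the other recent KO samples *Mpc2* was at 27.7 to 43.9 CPM. The part of these traits in the levels of this sample was not tested.

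**Figure D4:**
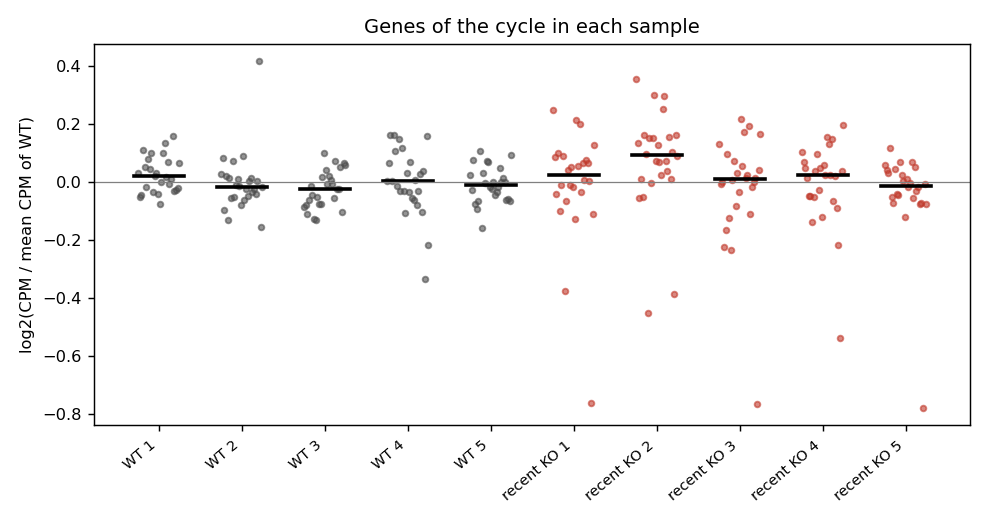
Log2 ratio of the CPM of each gene to its WT mean in every sample, for the 26 tested genes without *Mdh1*; black lines are medians. The median of recent KO replicate 2 is 0.094, and those of the other samples lie between -0.025 and 0.025; the lowest points are *Pcx*.

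Transcripts were compared as well. Of 67 tested transcripts from 26 of the genes, none passed the threshold in edgeR, against 0.0420% of all transcripts, and 6 had an unadjusted p under 0.05 (8.96%, against 6.15%). The share of a gene's reads taken by a transcript was also followed, since it does not depend on scaling between samples. Shares did not overlap between groups for 3 of 62 transcripts in genes with 2 or more (4.84%), against 1.08% of all such transcripts. They came from 2 genes, *Sucla2* and *Idh3a*, and the shares within a gene depend on each other.

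*Sucla2-203* and *Sucla2-201* have the same annotated coding exons and differ at their ends, with 2229 and 1545 bases. *Sucla2-203* took 59.9, 53.6, 62.8, 57.04, and 59.5% of *Sucla2* reads in WT replicates 1 to 5 and 69.6, 71.4, 63.6, 63.5, and 63.97% in recent KO replicates 1 to 5. *Sucla2-201* took 39.6, 45.5, 36.3, 42.7, and 39.4% and 29.7, 27.5, 35.5, 36.2, and 35.4%. The longer form was thus higher in share in every recent KO sample than in any WT sample, with WT and recent KO means of 58.6% ± 3.42 and 66.4% ± 3.797 (SD, n = 5 each). Its level had a log2 fold change of 0.33 (edgeR, adjusted p = 0.644 over all transcripts), and that of *Sucla2-201* was -0.17 (adjusted p = 0.814). *Idh3a-205*, a coding transcript of 2580 bases, took 39.7% to 46.996% of *Idh3a* reads in WT and 36.3% to 39.002% in recent KO samples. These transcripts were picked from the 62 because their groups were separate, so no test is given for their shares. The retained-intron form *Idh3a-203* held the larger part of *Idh3a* reads, 53.97% ± 3.34 in WT and 56.9% ± 1.93 in recent KO samples, with overlap. Transcript shares are Salmon's estimates, which divide reads among forms that differ over short stretches. In 18 of the 26 genes, 1 transcript took over 90% of the reads in WT.

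**Figure D5:**
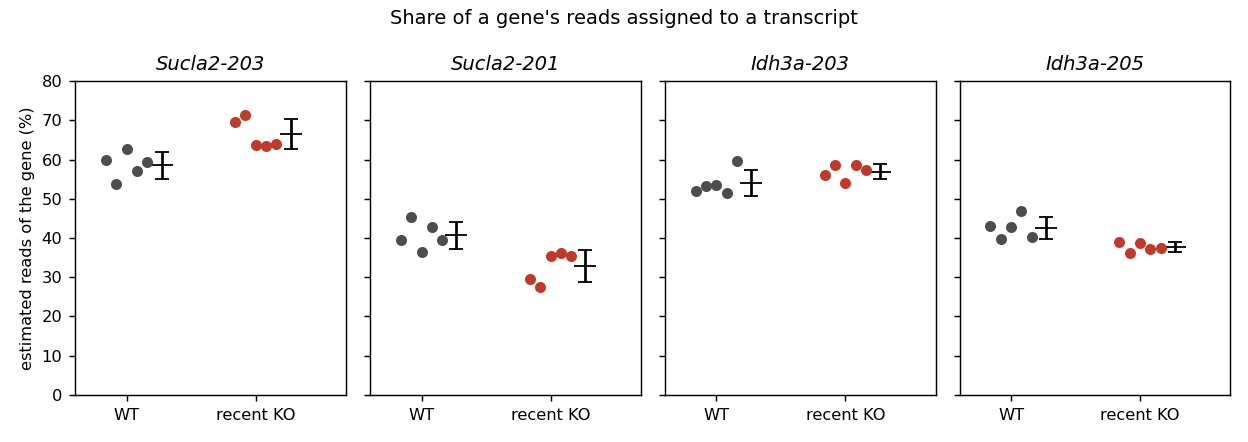
Percent of a gene's estimated reads assigned to each of 4 transcripts of *Sucla2* and *Idh3a* in WT (gray) and recent KO (red) samples, with mean and SD. *Sucla2-203*, *Sucla2-201*, and *Idh3a-205* are separate between groups, and *Idh3a-203* overlaps.

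Genes around the cycle were compared in the same fit. Of 41 further genes, for regulators of pyruvate dehydrogenase, lipoic acid synthesis, succinate dehydrogenase assembly, related dehydrogenases, glutamate, aspartate, and propionyl-CoA entry, carriers, and users of intermediates, 38 were tested. None passed the threshold in edgeR in either direction, against 0.331% of all genes tested (0.121% called higher and 0.210% lower). An unadjusted p under 0.05 was reached by 4 (10.5%, against 10.2% of all genes). In recent KO samples 23 were higher, against 49.6% of all genes. The median log2 fold change was 0.033, against -0.00181 over all genes. *Nnt*, the mitochondrial transhydrogenase that makes NADPH from NADH, was at 24.8 ± 4.46 CPM in WT samples against 14.6 ± 5.94 CPM in recent KO samples (range 18.9 to 31.1 against 8.26 to 23.9; log2 fold change -0.77, adjusted p = 0.223). Recent KO replicates 1 to 4 lay under all WT samples, and replicate 5 was within their range. *Slc25a12*, the aspartate-glutamate carrier of the malate-aspartate shuttle, was at 121 ± 7.26 CPM in WT samples against 109 ± 6.12 CPM in recent KO samples (range 111 to 129.7 against 102 to 118; log2 fold change -0.15, adjusted p = 0.415). *Gcsh*, the lipoyl-bearing H protein of glycine cleavage, was at 111 ± 10.5 CPM in WT samples against 127 ± 11.97 CPM in recent KO samples (range 96.3 to 124 against 116 to 147; log2 fold change 0.19, adjusted p = 0.427). *Mcee*, the epimerase of the propionyl-CoA route to succinyl-CoA, was at 67.8 ± 3.91 CPM in WT samples against 58.4 ± 9.12 CPM in recent KO samples (range 62.9 to 71.97 against 43.1 to 65.95; log2 fold change -0.22, adjusted p = 0.486).

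By list, the 6 tested regulators of pyruvate dehydrogenase were higher in 5 cases and lower in 1, and the kinase *Pdk4* held no more than 3 reads in any sample. Of the 6 genes for lipoic acid, the cofactor of both large dehydrogenases, 4 were higher, and of the 4 assembly factors of succinate dehydrogenase 3 were higher. The 5 genes for glutamate and aspartate entry were higher in 4 cases, and the 4 genes of propionyl-CoA entry in 1. The carriers of cycle intermediates, of which 5 were tested, were higher in 2. None of these single directions passed the threshold.

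Positions on GRCm38 were also compared. *Sdhc* and *Fh1* lie 5.65 and 10.1 Mb from *Mpc2* on chromosome 1, and *Idh1* 100.3 Mb from it. The 95% intervals of *Sdhc* and *Fh1* spanned 0, with log2 fold changes of -0.032 and -0.018. *Dlat* and *Sdhd* are neighbors on chromosome 9, 30821 bases apart, and had log2 fold changes of -0.0018 and 0.045. Exons of another gene lie in the 250 bases before a start of *Dlst* (*Prox2*), *Idh1* (*Pikfyve*), *Idh3g* (*Ssr4*), *Me3* (*A230065N10Rik*), *Pdhx* (*Apip*), *Sdha* (*Ccdc127*), and *Sdhd* (*Timm8b*).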

How the data were processed

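RNA-seq of 5 WT and 5 recent *Mpc2* KO samples was analyzed. The authors made libraries with the SMARTseq V4 kit, sequenced paired-end reads on a NovaSeq, and mapped them to the Gencode M27 annotation with Salmon (version 1.5.1 in the submitters' processing notes). The authors deposited estimated counts from Salmon for each transcript and sample, which are not normalized, and TPM, which are scaled to length and to a common total. A deposited table of the authors' DESeq2 comparison was used only for its signal column, the mean normalized count per gene, to learn whether all transcripts of a gene were found. Its fold changes and p values were not used.

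Transcripts were matched by Ensembl identifier to GENCODE M21 on GRCm38, an older annotation. Of 140789 transcripts, 137161 (97.4%) matched, and the rest held 0.348% to 0.390% of reads. Positions are from M21. Gene sums of the estimated counts were rounded to integers. A gene at or under 3 counts corresponds to 0.147 to 0.233 CPM or less, and counts cover counting error only, since amplified cDNA is not independent molecules. Genes kept by filterByExpr at a minimum count of 10 (12381 of 51717) entered edgeR 4.0.16 in R 4.3.3, with limma 3.58.1, after TMM normalization, with the group as the only term. SEs are the log2 fold change divided by the root of the F statistic. DESeq2 1.42.0, other normalizations, filters, scales, and the omission of each sample were alternatives, described at the end. For single values, exact permutation tests (two-sided) were run, and with 5 samples in each group their smallest p is 0.00794. Copies of at least 95% identity over 300 bases were found with BLAST 2.17.0. The statistical code was tested on simulated data. Other steps used scipy 1.17.1, pandas 2.3.3, and numpy 2.4.6 in Python 3.11.15.

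The genes of the set and all lists were chosen with earlier results of these data known. A further list of cell type markers is not reported here. Values in every sample are given for genes of the set with an unadjusted p under 0.05 or separate groups and for the most and least abundant gene of each step. Replicates were separate samples in the labels, no 2 samples held identical values, and chi-square values per gene of 6.85 to 46.6 between replicates were above sampling noise. The replicate numbers did not pair the samples, with correlations of deviations between same-numbered samples of -0.174 to 0.0366.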

Additional observations from a re-analysis of the deposited data

Results flagged for a closer look

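Among 54 groups of 5 samples (27 genes in 2 groups), 3 held a sample whose gap to the nearest other exceeded Dixon's 95% critical ratio of 0.71; chance flags about 1 in 20 groups. *Sdha* was at 421 CPM in recent KO replicate 2, against 329.9 to 349 CPM in recent KO replicates 1, 3, 4, and 5. *Idh3g* was at 631 CPM in the same sample, against 513 to 531 CPM. *Pdha1* was at 93.3 CPM in WT replicate 3, against 99.2 to 101 CPM in the other WT samples.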

How the results depend on the processing

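None of the genes passed the threshold under any alternative run. The median log2 fold change of the set was 0.10 with library sizes alone, 0.063 with an offset for transcript length, 0.12 with limma on log2(TPM + 1), and 0.12 with limma on log2(TPM + 0.1). The median over all genes was 0.069, -0.00423, 0.048, and 0.054 on these scales. Groups did not overlap for 1 gene, *Pdha1*, in place of 2 with library sizes alone and in TPM, where those of *Pcx* overlapped. The calls over all genes numbered 41 in edgeR, 156 in DESeq2, 206 with no filter, 25 and 24 on the TPM scales, 91 without recent KO replicate 2, and 25 to 38 without one of the other samples. The log2 fold changes of genes near 0 changed sign under some settings, none past the threshold. With RLE normalization, the value was 0.00063 for *Dlat*. With upper quartile normalization, the value was 0.015 for *Dlat*, 0.012 for *Aco1*. With library sizes alone, the value was 0.070 for *Dlat*, 0.062 for *Aco1*, 0.030 for *Ogdh*, 0.038 for *Sdhc*, 0.048 for *Fh1*, 0.042 for *Mdh2*. With a mean count of at least 50, the value was 0.0015 for *Dlat*. With an offset for transcript length, the value was 0.17 for *Dlat*, 0.018 for *Aco1*, -0.0082 for *Idh3b*, 0.15 for *Fh1*. In DESeq2, the value was 0.0024 for *Dlat*. With limma on log2(TPM + 1), the value was 0.22 for *Dlat*, 0.060 for *Aco1*, 0.042 for *Ogdh*, 0.053 for *Sdhc*, 0.21 for *Fh1*, 0.028 for *Mdh2*. With limma on log2(TPM + 0.1), the value was 0.24 for *Dlat*, 0.078 for *Aco1*, 0.043 for *Ogdh*, 0.053 for *Sdhc*, 0.21 for *Fh1*, 0.028 for *Mdh2*. With the unassigned transcript added, the value was -0.050 for *Mdh1*. Over the fits that each lacked 1 sample, the genes that changed sign ranged as follows: *Aco1* -0.035 to 0.027, *Fh1* -0.044 to 0.024, *Me2* -0.0088 to 0.069, *Pdhx* -0.022 to 0.061, *Idh3b* -0.025 to 0.035, *Dlat* -0.029 to 0.040, *Cs* -0.0062 to 0.056, *Idh2* -0.016 to 0.046, *Sdha* -0.011 to 0.083, *Mdh2* -0.066 to 0.013. The cause of these sign changes was not tested. With the replicate number as a block, 20 genes and none of the set were called, 19 of 27 were higher, and *Dlat* was at 4.80e-04; no sample correlated best with its own number.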
